A study of Mus musculus with 87 samples.

Results

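The genes described here had higher RNA levels in mouse embryonic stem cells that had lost 6 non-core subunits of Polycomb repressive complex 2 (PRC2), but not in cells that had lost its core subunit SUZ12. They were chosen from mean CPM (the count of a gene divided by the summed gene counts of its library, times 1000000): at least 2 CPM and at least 3 times the wild-type mean in the knockout of 6 subunits, and at most 1.2 times the wild-type mean in the Suz12 knockout. Of 55450 gene IDs in the count files, 41 met the rule, and all 41 were among the 14650 IDs kept for testing. The wild-type, Suz12 and 6-subunit knockout libraries chose the members, so their values are given as a description.

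PRC2 methylates histone H3 at lysine 27, a mark associated with silent developmental genes. SUZ12 holds the complex together with EED and the methyltransferase EZH2. Several of the non-core subunits are known to help the complex find its sites. The Polycomb-like proteins are encoded by Phf1, Mtf2 and Phf19 and called Pcl1-3 in the labels. They and EPOP belong to one form of PRC2, and JARID2 and AEBP2 to the other.

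Of the 87 samples in the series, 24 are RNA-seq libraries, which cover 8 genotypes with 3 libraries each. The knockouts were Pcl1-3 + Jarid2 + Aebp2 + Epop KO (called the 6-subunit KO), Pcl1-3 + Jarid2 + Aebp2 KO (the 5-subunit KO), Pcl1-3 + Jarid2 KO, Pcl1-3 + Epop KO, Pcl1-3 KO, Jarid2 + Aebp2 KO and Suz12 KO, and the last genotype was wild type (WT). All were grown on gelatin in 2i medium, which keeps stem cells in a naive state. The labels do not say how many clones or cultures stand behind a genotype, so each p-value rests on library-to-library spread alone, which could be technical. The strain label runs from 129B6F8 in the 6-subunit KO to 129B6F1 in WT, with a different one for each genotype and numbers that run in sequence. Whether these mark real strains is not given in the labels. If they do, strain and genotype cannot be told apart.

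The count files name genes by Ensembl ID, and neither they nor the reference table pair these IDs with symbols. No name, function, position or promoter sequence is therefore given for a member, and the loss of each targeted gene and the markers of stem cells and other cell types were not checked. Members are numbered 1 to 41 in falling order of the 6-subunit KO to WT ratio (0.1 CPM added to both), and 4 are given by ID. In bulk RNA, more cells that transcribe a gene and more RNA per cell cannot be told apart.

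The selection was a small part of what changed in the 6-subunit KO. At 2 CPM or more, 474 IDs had at least 3 times the WT mean there. In Suz12 KO, 272 of these also reached 3 times WT, 161 lay between 1.2 and 3 times, and 41 were at or below 1.2 times. In the other direction, 1176 IDs reached the same level and fold in Suz12 KO, and 454 of them stayed at or below 1.2 times WT in the 6-subunit KO.

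The 41 members spanned a wide range of levels and were detected in WT. The rule nearly required this detection, as an ID without WT counts could enter only without Suz12 KO counts. Mean levels ran from 2.02 to 181.5 CPM in the 6-subunit KO (median 9.31), against 0.399 to 55.3 CPM in WT (median 2.04). No member had a library without counts in WT, where 11 members were under 1 CPM and 11 at 10 CPM or more. The ratio of the 6-subunit KO to WT ran from 3.01 to 10.8, with a median of 3.87, and that of Suz12 KO to WT from 0.0915 to 1.15, with a median of 0.833. In Suz12 KO 32 of the 41 means lay below WT.

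In 40 of the 41 members every 6-subunit KO library was above every WT library; this held for 22.2% of all IDs tested. The exception, member 36, had 0.524, 3.19 and 2.92 CPM in the 6-subunit KO, against 0.379, 1.18 and 0.427 CPM in WT. All 41 passed the test in the 6-subunit KO against WT (edgeR quasi-likelihood test with Benjamini-Hochberg adjustment over all IDs), a call made for 17.1% of IDs as higher. In Suz12 KO 6 members were called lower than WT, against 18.3% of IDs, and none higher (20.7%). The rule used these same libraries, so nothing is read from these counts of members.

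IDs lay close to each threshold on both sides. Just inside the fold threshold lay ratios of 3.007 and 3.010, and just outside 2.98 and 2.95. Means of 2.02 and 2.21 CPM in the 6-subunit KO were just inside the minimum, and 1.93 and 1.82 CPM just outside it. For Suz12 KO over WT, 1.15 and 1.11 were the nearest values inside, and 1.201 and 1.204 the nearest outside. With 1 of the 9 deciding libraries left out at a time, 35 to 61 IDs met the rule, and 21 of the 41 members were found in all 9 repeats.

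**Figure D1:**
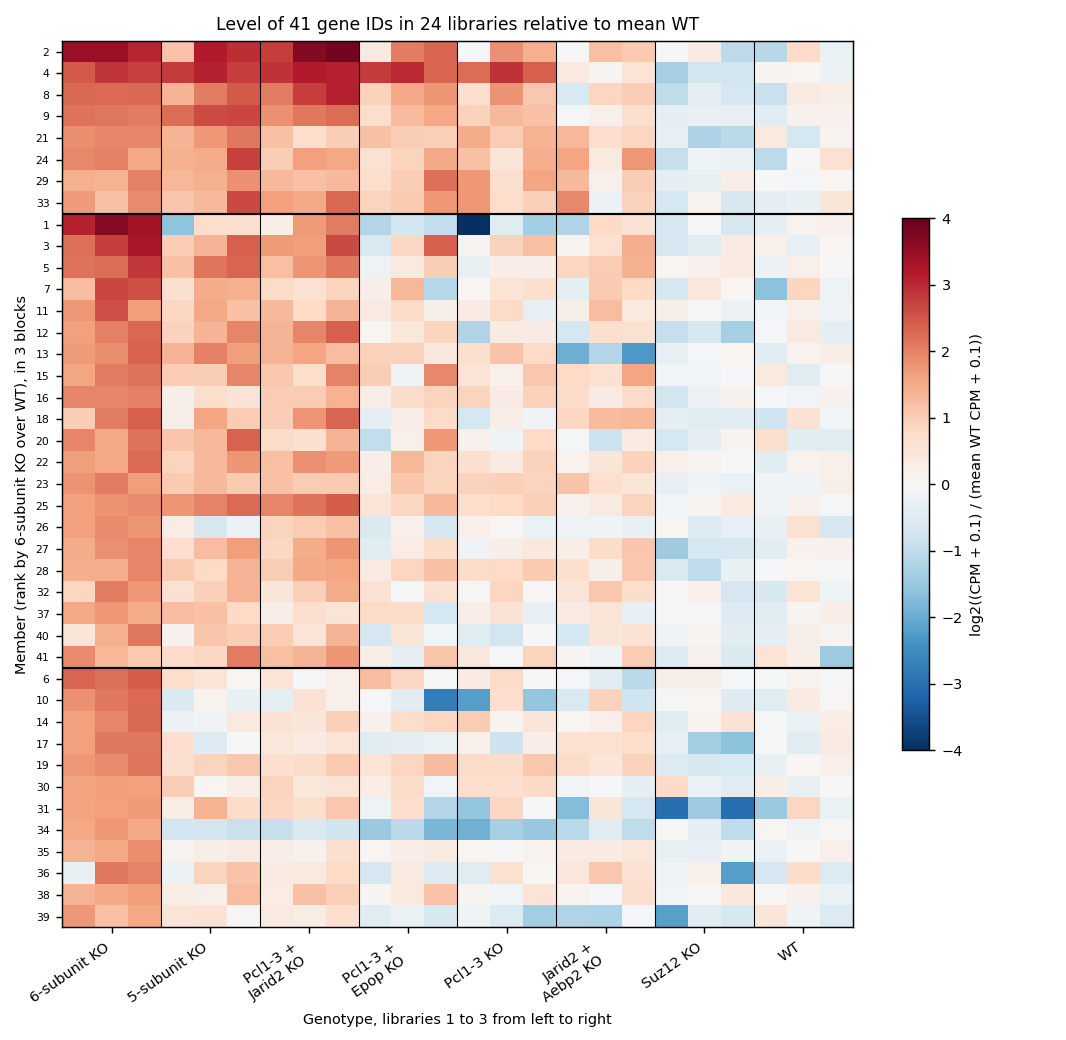
Each row is 1 of the 41 members, numbered by rank, and each column 1 library; colour gives log2((CPM + 0.1) / (mean WT CPM + 0.1)). The upper block holds 8 members at 2 times WT or more in Pcl1-3 KO, the middle block 21 that reached this in Pcl1-3 + Jarid2 KO or the 5-subunit KO, and the lower block 12 that reached it in none of the 5 genotypes the rule did not use.

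Most members were also above WT in the 2 other genotypes without both the Polycomb-like proteins and JARID2. At least 2 times the WT mean was reached by 25 members in the 5-subunit KO, by 26 in Pcl1-3 + Jarid2 KO, by 10 in Pcl1-3 + Epop KO, by 8 in Pcl1-3 KO and by 6 in Jarid2 + Aebp2 KO. Over 14614 tested IDs with a count in WT the shares were 5.65%, 7.62%, 5.65%, 4.87% and 4.45% in the same order. The median member stood at 2.24 times WT in the 5-subunit KO, 2.22 times in Pcl1-3 + Jarid2 KO, 1.57 times in Pcl1-3 + Epop KO, 1.43 times in Pcl1-3 KO and 1.48 times in Jarid2 + Aebp2 KO. These ratios have WT below the line, and the rule took members with a low WT mean, which by itself raises them.

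**Figure D2:**
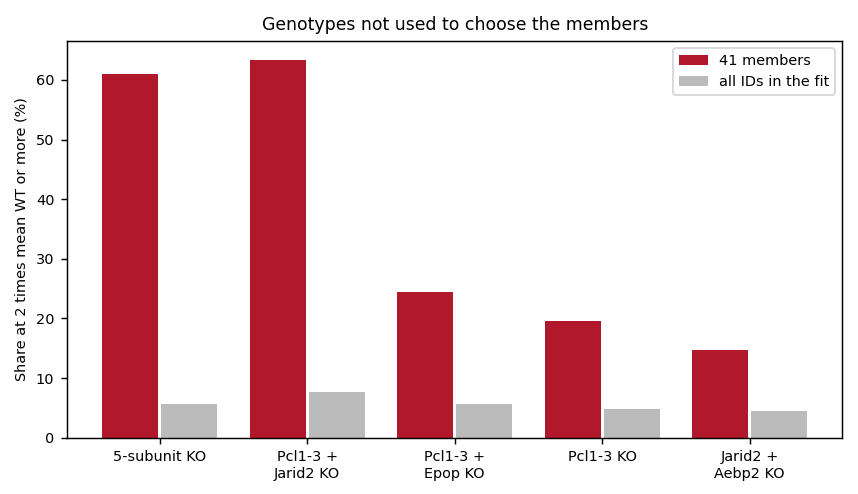
Bars give the share of IDs, in percent, whose mean was at least 2 times the WT mean in each genotype that the rule did not use, for the 41 members and for 14614 tested IDs with a count in WT. The bars stand for 25, 26, 10, 8 and 6 members from left to right.

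Against WT, the test called 21 members higher in the 5-subunit KO (7.95% of all IDs), 24 in Pcl1-3 + Jarid2 KO (9.26%), 8 in Pcl1-3 + Epop KO (3.94%), 8 in Pcl1-3 KO (4.35%) and 3 in Jarid2 + Aebp2 KO (2.26%). The same 3 WT libraries enter all of these and the rule, so the counts are a description. In Jarid2 + Aebp2 KO the count was 0, 0 and 1 without WT replicate 1, 2 or 3. The shares of all IDs were then 0.265%, 0.721% and 1.01%. Without Jarid2 + Aebp2 KO replicate 1 or 3 the count was 0 (0.756% and 0.225% of all IDs). In Pcl1-3 KO the count was 4 without WT replicate 1 (1.21%) and 5 without WT replicate 2 (2.10%). Without Pcl1-3 KO replicate 3 it was 5 (1.35%). For Pcl1-3 + Epop KO it was 5 without WT replicate 1 (1.17%) and 5 without WT replicate 2 (1.99%). It was 4 without Pcl1-3 + Epop KO replicate 3 (1.23%). In Pcl1-3 + Jarid2 KO 15 members were called without its own replicate 3 (5.13%).

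Contrasts between the 5 genotypes that the rule did not use compare none of its libraries, and 4 were tested. The spread behind their standard errors and p-values was estimated over all 24 libraries, those of the rule included. These contrasts compare the members between genotypes that differ by the loss of 1 more subunit, or of the Polycomb-like proteins. They are not independent of each other: the losses of Jarid2 and of Epop are both set against the Pcl1-3 KO libraries, and the Pcl1-3 + Jarid2 KO and 5-subunit KO libraries each enter 2 contrasts.

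Where cells without Pcl1-3 lost Jarid2 as well, some members rose and none fell past the test. In Pcl1-3 + Jarid2 KO against Pcl1-3 KO, 9 of the 41 rose (edgeR quasi-likelihood, adjusted p from 0.000129 to 0.0196) and 0 fell, against 3.71% and 2.56% of all IDs. Their log2 fold changes ran from 0.91 to 2.99. Over all 41 the median was 0.67 and 36 were positive, while over all IDs the median was −0.005 and 49.1% were positive. Within replicate numbers 1, 2 and 3 the positive members numbered 34, 35 and 37, with medians of 0.64, 0.72 and 0.82 on the log2(CPM + 0.1) scale. With the replicate number as a block, 16 rose and 0 fell (7.37% and 5.94% of all IDs). Leaving out replicate 3 of Pcl1-3 + Jarid2 KO gave a count of 5 (1.77% of all IDs). Leaving out replicate 1 of Pcl1-3 KO also gave 5 (1.97%), and a fit of only these 2 genotypes gave 8 (3.31%).

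Adding the loss of the Polycomb-like proteins to that of Jarid2 and Aebp2 gave a similar count. In the 5-subunit KO against Jarid2 + Aebp2 KO, 10 members rose (adjusted p from 2.03e-08 to 0.0477, edgeR) and 0 fell, against 6.87% and 6.83% of all IDs. The log2 fold changes of the 10 ran from 0.81 to 3.52. Over all 41 the median was 0.67 and 33 were positive, against −0.01 and 48.9% over all IDs. Within replicate numbers 1, 2 and 3, 31, 32 and 36 members were positive, with medians of 0.42, 0.61 and 0.69. With the block 16 rose and 0 fell (11.8% and 12% of all IDs). Leaving out 5-subunit KO replicate 2 gave 6 (4.89% of all IDs), and leaving out its replicate 3 gave 5 (4.99%). Leaving out Jarid2 + Aebp2 KO replicate 1 gave 6 (4.58%), and a fit of only these 2 genotypes gave 6 (4.85%).

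In the fit without the block, no member passed the test when Aebp2 loss was added to Pcl1-3 + Jarid2 KO. The same held when Epop loss was added to Pcl1-3 KO. In the 5-subunit KO against Pcl1-3 + Jarid2 KO 0 members rose and 0 fell, against 0.341% and 0.56% of all IDs by edgeR. At an unadjusted p under 0.05, 3 were higher and 3 lower. DESeq2 called 0, against 0.606% and 1.05% of all IDs. A count of 0 is near what these shares give for 41 IDs. The log2 fold change was positive for 17 of 41 members (50.4% of all IDs), with a median of −0.11 and a range of −1.32 to 0.84. With the block 2 members rose and 1 fell (1.13% and 1.82% of all IDs). In Pcl1-3 + Epop KO against Pcl1-3 KO 0 members were called by edgeR or DESeq2 and 0 had an unadjusted p under 0.05; 27 of 41 were positive (52.4% of all IDs), with a median of 0.08 and a range of −0.42 to 0.52. In that contrast 1 ID of all 14650 was called (0.00683% higher, 0% lower), so the absence of calls among the members is not particular to them.

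**Figure D3:**
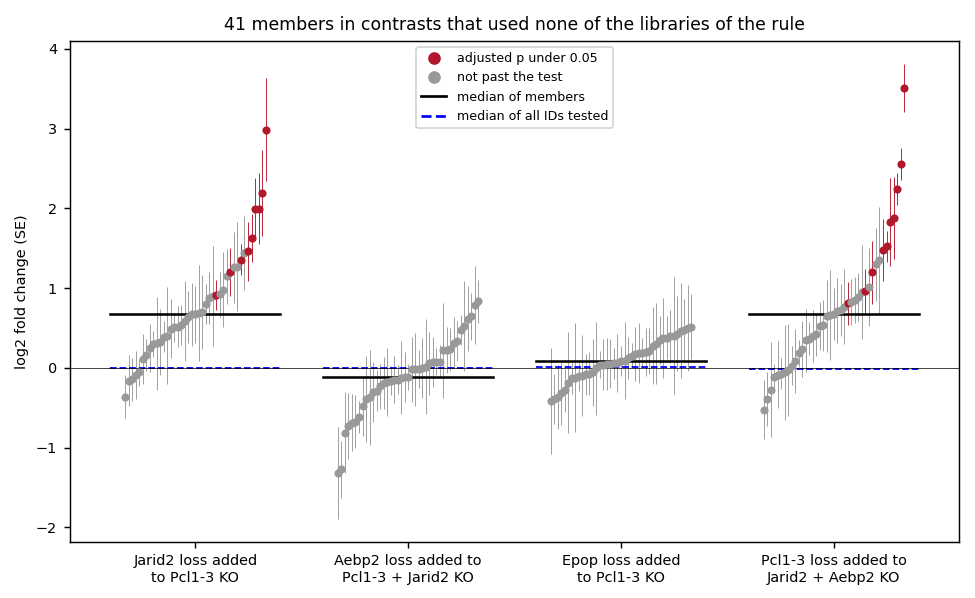
Points are the log2 fold changes of the 41 members, with standard errors, in the 4 contrasts that compared no library of the rule. Red points passed the test. Black lines mark the members' medians of 0.67, −0.11, 0.08 and 0.67, and dashed lines the medians of all tested IDs, which lie near 0.

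Of the 9 that rose with the loss of Jarid2 and the 10 that rose with the loss of Pcl1-3, 5 were the same, 14 rose in at least 1 of these contrasts and 27 in neither. Over all tested IDs, 1.39% rose in both contrasts and 9.19% in at least 1; those in both were 37.4% of the IDs that rose with the loss of Jarid2 and 20.2% of those that rose with the loss of Pcl1-3. The 2 contrasts share no library. The members that rose in both are numbers 2, 8, 9, 12 and 25.

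Member 9 had 129.4, 168.3 and 176.1 CPM in the 5-subunit KO, against 26.5, 31.9 and 43.1 CPM in Jarid2 + Aebp2 KO. It had 98.6, 117.4 and 130.1 CPM in Pcl1-3 + Jarid2 KO, against 52.3, 67.8 and 62.0 CPM in Pcl1-3 KO. No libraries overlapped in either contrast, and the log2 fold changes were 2.24 ± 0.20 with the loss of Pcl1-3 (SE, edgeR adjusted p = 1.10e-07) and 0.91 ± 0.19 with that of Jarid2 (SE, edgeR adjusted p = 0.0047).

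Member 25 had 57.3, 66.5 and 80.4 CPM in the 5-subunit KO, against 19.02, 21.5 and 31.4 CPM in Jarid2 + Aebp2 KO. It had 65.55, 75.9 and 90.6 CPM in Pcl1-3 + Jarid2 KO, against 27.3, 29.5 and 32.6 CPM in Pcl1-3 KO. Here too no libraries overlapped, with log2 fold changes of 1.53 ± 0.19 for Pcl1-3 (SE, edgeR adjusted p = 1.20e-05) and 1.36 ± 0.19 for Jarid2 (SE, edgeR adjusted p = 0.000129).

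Member 12 was less abundant, with 3.81, 5.29 and 7.99 CPM in the 5-subunit KO, against 1.17, 3.16 and 3.11 CPM in Jarid2 + Aebp2 KO. It had 5.24, 8.05 and 10.9 CPM in Pcl1-3 + Jarid2 KO, against 0.796, 2.49 and 2.50 CPM in Pcl1-3 KO. Both contrasts were free of overlap, with log2 fold changes of 1.197 ± 0.39 for Pcl1-3 (SE, edgeR adjusted p = 0.0471) and 1.99 ± 0.39 for Jarid2 (SE, edgeR adjusted p = 0.00302).

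Among the 5 genotypes outside the rule, the level was highest in Pcl1-3 + Jarid2 KO for 24 of the 41 members and in the 5-subunit KO for 12. For all tested IDs these shares were 21.4% and 20.2%. The level was lowest in Jarid2 + Aebp2 KO for 19 members and in Pcl1-3 KO for 14, against 25.8% and 16.8% of all IDs.

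The 8 members at 2 times WT or more in Pcl1-3 KO had nearly the same median in the 3 genotypes without both the Polycomb-like proteins and JARID2: 4.16 times WT in the 6-subunit KO, 4.30 in the 5-subunit KO and 4.07 in Pcl1-3 + Jarid2 KO. Their medians were 2.67 in Pcl1-3 + Epop KO, 2.48 in Pcl1-3 KO, 1.85 in Jarid2 + Aebp2 KO and 0.742 in Suz12 KO. Member 4 had 132.0, 161.0 and 130.1 CPM in the 5-subunit KO, against 24.9, 20.5 and 27.9 CPM in Jarid2 + Aebp2 KO, a log2 fold change of 2.56 ± 0.20 (SE, edgeR adjusted p = 2.03e-08). It stood at 6.47 times WT in the 6-subunit KO, 7.43 in the 5-subunit KO, 8.39 in Pcl1-3 + Jarid2 KO, 5.84 in Pcl1-3 KO and 0.523 in Suz12 KO.

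A further 21 members were below 2 times WT in Pcl1-3 KO and reached it in Pcl1-3 + Jarid2 KO or the 5-subunit KO. Their medians were 3.87 times WT in the 6-subunit KO, 2.39 in the 5-subunit KO, 2.68 in Pcl1-3 + Jarid2 KO, 1.45 in Pcl1-3 + Epop KO, 1.30 in Pcl1-3 KO, 1.52 in Jarid2 + Aebp2 KO and 0.861 in Suz12 KO. Member 5, among the most abundant, had 149.2, 156.0 and 239.4 CPM in the 6-subunit KO, against 28.15, 38.4 and 33.55 CPM in WT, and stood at 3.88 times WT in the 5-subunit KO, 1.07 in Pcl1-3 KO and 2.18 in Jarid2 + Aebp2 KO.

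The last 12 members were below 2 times WT in all 5 genotypes outside the rule. Their medians were 3.37 times WT in the 6-subunit KO, 1.36 in the 5-subunit KO, 1.45 in Pcl1-3 + Jarid2 KO, 1.07 in Pcl1-3 + Epop KO, 1.08 in Pcl1-3 KO, 1.14 in Jarid2 + Aebp2 KO and 0.801 in Suz12 KO. Member 6 had 144.8, 130.8 and 155.4 CPM in the 6-subunit KO, against 27.01, 31.7 and 27.1 CPM in WT. It had 46.2, 41.01 and 30.5 CPM in the 5-subunit KO, against 27.4, 20.7 and 13.5 CPM in Jarid2 + Aebp2 KO. The lowest 5-subunit KO library was above the highest Jarid2 + Aebp2 KO library, and it rose by 0.96 ± 0.28 on the log2 scale with the added loss of Pcl1-3 (SE, edgeR adjusted p = 0.0241).

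The step between the 5-subunit KO and the 6-subunit KO is the loss of Epop. The ratio of the 6-subunit KO to the 5-subunit KO ran from 0.755 to 9.08 with a median of 1.63; it was 2 or more in 14 members and below 1 in 5. The rise of the 5-subunit KO over WT was 45.9% of that of the 6-subunit KO for the median member, with a range of −20.8% to 142%. In 7 members at least 1 genotype outside the rule was as high as the 6-subunit KO or higher. The test called 12 members higher in the 6-subunit KO than in the 5-subunit KO, against 5.79% of all IDs, and 0 lower (5.45%). The rule used the 6-subunit KO and WT libraries, so nothing is read from these calls, nor from the ratios and shares above.

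The 2 members with the highest ratio differed in where else they were high. ENSMUSG00000025839.3 (member 1) had 20.6, 30.3 and 24.5 CPM in the 6-subunit KO, against 1.80, 2.56 and 2.64 CPM in WT. It had 0.692, 3.83 and 3.78 CPM in the 5-subunit KO, 2.80, 7.88 and 10.3 CPM in Pcl1-3 + Jarid2 KO, and 0, 1.64 and 0.844 CPM in Pcl1-3 KO. No library outside the 6-subunit KO reached its lowest value there.

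For the same ID, Pcl1-3 + Epop KO had 0.978, 1.35 and 1.12 CPM, Jarid2 + Aebp2 KO 0.951, 4.13 and 3.51 CPM and Suz12 KO 1.42, 2.28 and 1.46 CPM. It rose by 2.99 ± 0.64 on the log2 scale with the added loss of Jarid2 (SE, n = 3 libraries each, edgeR adjusted p = 0.00603). The edgeR adjusted p for this ID was 0.0680 with only the 2 genotypes fitted and 4.08e-05 with the replicate block. Its log2 fold change for the added loss of Pcl1-3 was −0.06 ± 0.60 (SE, edgeR adjusted p = 0.966).

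ENSMUSG00000021553.14 (member 2) had 19.7, 19.7 and 15.3 CPM in the 6-subunit KO, against 0.758, 3.05 and 1.42 CPM in WT. It had 3.95, 16.4 and 14.05 CPM in the 5-subunit KO and 12.4, 23.2 and 25.9 CPM in Pcl1-3 + Jarid2 KO. The 6-subunit KO libraries overlapped those of both genotypes.

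Its levels were 2.26, 7.60 and 9.19 CPM in Pcl1-3 + Epop KO, 1.77, 6.48 and 4.82 CPM in Pcl1-3 KO, 1.76, 4.19 and 3.75 CPM in Jarid2 + Aebp2 KO and 1.71, 2.22 and 0.798 CPM in Suz12 KO. It rose by 2.19 ± 0.54 on the log2 scale with the added loss of Jarid2 (SE, edgeR adjusted p = 0.0157). With the added loss of Pcl1-3 it rose by 1.83 ± 0.55 (SE, edgeR adjusted p = 0.0301). Neither call held in every repeat that left out 1 library: the adjusted p reached 0.0576, 0.0799, 0.0976 and 0.0576 without Pcl1-3 + Jarid2 KO replicate 2 or 3 or Pcl1-3 KO replicate 1 or 3. For the loss of Pcl1-3 the adjusted p reached 0.142 and 0.0882 without 5-subunit KO replicate 2 or 3. It reached 0.136 and 0.0781 without Jarid2 + Aebp2 KO replicate 1 or 3, and 0.0591 with only the 2 genotypes fitted. With the replicate block, the edgeR adjusted p of member 2 was 0.000214 for the loss of Jarid2 and 0.0021 for that of Pcl1-3.

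**Figure D4:**
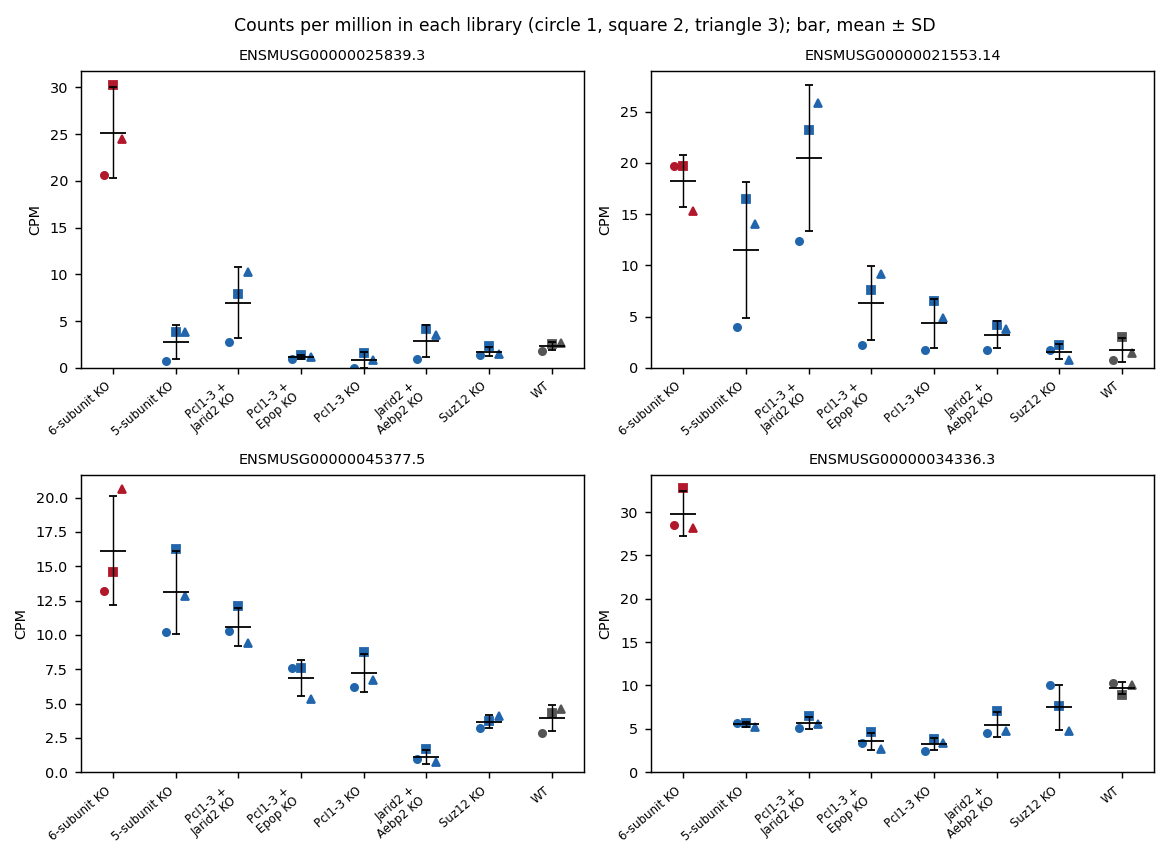
Each panel gives CPM in the 24 libraries for 1 gene ID, by genotype, with circles, squares and triangles for replicates 1, 2 and 3 and bars for the mean ± SD of 3 libraries. The 2 upper IDs have the highest 6-subunit KO to WT ratios, and the 2 lower IDs are the members called lower than WT by the test in a knockout outside the rule.

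Just 2 members were called lower than WT in any of the 5 genotypes outside the rule, and they are named for that, after their values were seen. One was called lower in Jarid2 + Aebp2 KO alone and the other in all 5. That makes 1 member each in the 5-subunit KO (7.08% of all IDs), Pcl1-3 + Jarid2 KO (7.91%), Pcl1-3 + Epop KO (3.67%) and Pcl1-3 KO (4.35%), and 2 in Jarid2 + Aebp2 KO (2.13%).

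ENSMUSG00000045377.5 (member 13) had 13.2, 14.6 and 20.7 CPM in the 6-subunit KO, 10.2, 16.2 and 12.9 CPM in the 5-subunit KO, and 0.951, 1.70 and 0.718 CPM in Jarid2 + Aebp2 KO, against 2.84, 4.34 and 4.63 CPM in WT. Its call was lost without replicate 1 of every genotype (edgeR adjusted p = 0.0746). The Jarid2 + Aebp2 KO libraries were all below WT and the 5-subunit KO libraries all above it.

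The remaining knockouts of that ID had 10.3, 12.1 and 9.39 CPM (Pcl1-3 + Jarid2 KO), 7.60, 7.60 and 5.32 CPM (Pcl1-3 + Epop KO), 6.19, 8.76 and 6.72 CPM (Pcl1-3 KO) and 3.20, 3.72 and 4.12 CPM (Suz12 KO). Every library without the Polycomb-like proteins was above every WT library. With the added loss of Pcl1-3 it rose by 3.52 ± 0.30 on the log2 scale (SE, edgeR adjusted p = 6.93e-08), the largest change among the members in that contrast. With the added loss of Jarid2 its log2 fold change was 0.54 ± 0.25 (SE, edgeR adjusted p = 0.253).

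ENSMUSG00000034336.3 (member 34) was above WT in the 6-subunit KO and below WT, by its mean, in the other 6 knockouts. It had 28.5, 32.8 and 28.1 CPM in the 6-subunit KO and 5.68, 5.71 and 5.21 CPM in the 5-subunit KO, against 10.2, 8.87 and 10.04 CPM in WT. The 3 genotypes did not overlap.

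That ID had 5.10, 6.49 and 5.54 CPM in Pcl1-3 + Jarid2 KO, 3.39, 4.59 and 2.66 CPM in Pcl1-3 + Epop KO, 2.48, 3.85 and 3.34 CPM in Pcl1-3 KO, 4.54, 7.10 and 4.79 CPM in Jarid2 + Aebp2 KO and 10.03, 7.63 and 4.79 CPM in Suz12 KO. All libraries of the first 4 of these genotypes lay below all WT libraries, and the Suz12 KO libraries overlapped WT. The call as lower than WT held in Pcl1-3 + Epop KO and Pcl1-3 KO with any 1 library left out. It was lost without WT replicate 1 or 3 in the 5-subunit KO, Pcl1-3 + Jarid2 KO and Jarid2 + Aebp2 KO (edgeR adjusted p of 0.0828 and 0.0679, 0.0869 and 0.0689, and 0.179 and 0.116). It was also lost without any of the 3 5-subunit KO libraries, without replicate 1 or 3 of Pcl1-3 + Jarid2 KO or of Jarid2 + Aebp2 KO, and without WT replicate 2 in Jarid2 + Aebp2 KO (adjusted p = 0.0796). Its log2 fold change was 0.80 ± 0.25 with the added loss of Jarid2 (SE, edgeR adjusted p = 0.0615) and 0.03 ± 0.24 with that of Pcl1-3 (SE, edgeR adjusted p = 0.959).

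Replicate 1 was low for the members in most genotypes. Within the 6-subunit KO it was the lowest of the 3 libraries for 25 of 41 members, against 36.4% of all IDs. The counts were 29 in the 5-subunit KO (37.6% of all IDs), 22 in Pcl1-3 + Jarid2 KO (36.2%), 25 in Pcl1-3 + Epop KO (40.05%), 18 in Pcl1-3 KO (27.3%), 20 in Jarid2 + Aebp2 KO (30.5%), 20 in Suz12 KO (45.2%) and 23 in WT (40.4%). The labels do not say what a replicate number stands for, and its part in the choice of members was not tested. Without replicate 1 of every genotype 56 IDs met the rule, 33 of them members. In the same setting 9 of the 41 rose with the added loss of Jarid2 (2.38% of all IDs) and 9 with that of Pcl1-3 (3.33%).

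Total counts ran from 10148155 to 28442061 per library, with a median of 13479894. Trimmed-mean (TMM) scaling factors lay between 0.946 and 0.989 in the 6-subunit KO and between 1.07 and 1.09 in Suz12 KO, against 0.974 to 0.995 in WT. With TMM-scaled CPM in the rule, 57 IDs were found, all 41 members among them. The lowest summed count of a member was 76 over the 3 libraries of the 6-subunit KO and 14 over those of WT, so ratios of the least abundant members carry a large counting error.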

How the data were processed

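For each library, the deposited file gives the authors' raw count of reads for every Ensembl gene ID. STAR, HTSeq and the mm10 build are named in the submitters' processing notes, without versions, and total RNA and a TruSeq kit in the labels' protocols. The sources used here do not give strandedness, so antisense, overlapping and near-identical genes are uncertain. The 3 deposited peak lists were not used, since no table pairs the IDs with positions; the planned peak, list, marker and motif descriptions were not run, and the planned rule for named genes, which needs symbols, was replaced after the files were seen.

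The members and lists were chosen with earlier results of these data known. CPM for the rule used unscaled library totals. Counts were tested with edgeR 4.0.16 in R 4.3.3: filterByExpr (14650 IDs kept; 24056 had no count), TMM scaling, 1 mean per genotype over 24 libraries, robust quasi-likelihood test, Benjamini-Hochberg adjustment over all IDs, call at an adjusted p under 0.05. Standard errors are the log2 fold change over the root of F. The fit was checked on simulated counts without an effect of replicate number, so this check does not cover paired libraries. Replicate numbers were checked as pairs, by correlating deviations from genotype means between same-numbered libraries. In the 4 contrasts outside the rule these correlated at 0.200 to 0.710 (3 of 3 pairs over 0.1 in each), so blocked counts are given there. Values of single members are from the fit without the block unless stated. Against WT they ran from 0.0749 to 0.289, with 1 or 2 of 3 pairs over 0.1 in each contrast, so there the block is an alternative. Alternatives were DESeq2 1.42.0, RLE factors, no filter, only the genotypes compared, the block, and leaving out libraries.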

Additional observations from a re-analysis of the deposited data

How the results depend on the processing

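The number of IDs meeting the rule was 142 at 2 times WT, 16 at 4 times WT and 70 with Suz12 KO up to 1.5 times WT, and 35 to 61 with libraries left out. The count of members called higher with the added loss of Jarid2 was 9 of 41. It was 5 to 12 with libraries left out (1.77% to 3.54% of all IDs) and 16 with the replicate block (7.37%). For the added loss of Pcl1-3 it was 10. With libraries left out it was 5 to 11 (3.33% to 6.27%), with the block 16 (11.8%) and with only the genotypes compared 6 (4.85%). For the added loss of Aebp2, 1 rose and 3 fell without the filter on low counts (0.465% and 0.78%). With the block 2 rose and 1 fell (1.13% and 1.82%). Over 13 settings each, 35 to 37 members were positive for the loss of Jarid2 and 32 to 37 for that of Pcl1-3, and no setting called a member lower in either contrast.

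Against WT, members called higher in Jarid2 + Aebp2 KO numbered 10 without the filter (2.7% of all IDs) and 12 with the block (8.48%). With libraries left out they numbered 0 to 3 (0.0472% to 2.86%). In Pcl1-3 KO they numbered 13 without the filter (3.47%) and 3 to 8 with libraries left out (0.58% to 5.45%). In Pcl1-3 + Epop KO they were 13 without the filter (3.33%), 16 with the block (9.88%) and 1 with only the genotypes compared (0.266%). With libraries left out there were 4 to 12 (1.17% to 7.27%). In Pcl1-3 + Jarid2 KO they were 15 to 24 (4.85% to 7.69%), and in the 5-subunit KO 16 to 22 (4.12% to 7.41%), with libraries left out. Same-numbered libraries against WT correlated at 0.0749 to 0.289, but not over 0.1 in every pair, so the pairing is a hint from the data there. Over all 8 genotypes 75 of 84 same-numbered pairs were over 0.1. Leaving out replicate 1 of every genotype was added after the data were seen. The cause of these moves was not tested. With 3 libraries a genotype, and summed WT counts as low as 14, small differences may have been missed, above all in the least abundant members.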
